A study of Saccharomyces cerevisiae S288C with 9 samples.

Results

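The Set3 complex is a histone deacetylase complex of budding yeast, and its 7 genes are SET3, SNT1, SIF2, HOS2, HOS4, HST1 and CPR1. They were taken by their systematic names, YKR029C, YCR033W, YBR103W, YGL194C, YIL112W, YOL068C and YDR155C, from a table of read counts with 7127 gene rows. Membership is textbook knowledge of the complex and used no measured value, but the set was chosen with earlier results of these data known. All 7 genes were among the 6133 rows with enough reads to be tested.

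Set1 is the methyltransferase that marks lysine 4 of histone H3 over the start of transcribed genes. Set3 binds the dimethylated form of that mark through its PHD finger, and the complex then removes acetyl groups from nearby nucleosomes through its deacetylases Hos2 and Hst1. In yeast the complex is known for holding down sporulation genes during growth, for shaping gene induction when conditions change, and for being brought to genes by overlapping noncoding transcription. Its relatives in animals are the SMRT and NCoR corepressor complexes.

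The RNA came from 3 strains of Saccharomyces cerevisiae S288C: one with Set1 S228A (a serine of Set1 replaced by alanine, which cannot be phosphorylated), one with Set1 S228E (the same serine replaced by glutamate, often used to mimic phosphorylation) and one labelled WT Control. Each strain had 3 libraries, called biological replicates in the design text, and the cells were untreated and in mid-log growth in YPD, a rich medium with glucose. The sources used here do not say how the alleles were made, how many clones stand behind each strain or which mating type it has. The libraries held between 14455017 and 19658103 counted read pairs, and the biological coefficient of variation between replicates, common to all genes, was 9.61%.

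Levels are given as CPM, counts per 1000000 counted read pairs after TMM scaling of the libraries. CPM per kilobase of exon is used wherever different genes are compared. A gene is said to have risen or fallen when edgeR's quasi-likelihood test, fitted over all genes, put it past both limits the submitters name, 1.5-fold and a p of 0.05 after Benjamini-Hochberg adjustment. The 3 strain comparisons share libraries, so they are not independent of each other.

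HOS2, the gene of the class I deacetylase at the centre of the complex, was the 1 member of 7 that rose in S228A against WT, and no member fell. Among all genes tested, 12.2% passed in this comparison, 4.37% as higher and 7.81% as lower. HOS2 is a single-exon gene on the minus strand at chrVII:140368-141726 of sacCer3. The 250 bases that end 51 bases before its start codon, at chrVII:141777-142026, are shown because they lie upstream of the member that moved. They are taken here as its promoter, with no measure of promoter activity. Those from chrVII:141898 on also lie inside the noncoding RNA gene RME2, and those from chrVII:141916 on inside the reading frame YGL193C. The sequence is on the HOS2 strand, from the RefSeq R64 genome. Its capitals mark TGAAAC, the core of the pheromone response element bound by Ste12. That element was searched after the mating response genes, whose summed level is given further on, had been seen to rise.
HOS2 promoter: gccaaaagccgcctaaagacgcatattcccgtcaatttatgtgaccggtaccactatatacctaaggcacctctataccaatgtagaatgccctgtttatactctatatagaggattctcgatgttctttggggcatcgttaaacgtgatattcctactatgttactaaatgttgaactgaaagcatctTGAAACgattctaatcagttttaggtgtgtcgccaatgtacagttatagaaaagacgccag

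HOS2 stood at 46.2, 57.4 and 51.9 CPM in the 3 S228A libraries, at 26.2, 29.1 and 27.0 CPM in the S228E libraries, and at 25.8, 20.5 and 26.9 CPM in the WT libraries. Every S228A library lay above every S228E and WT library, while the S228E and WT libraries overlapped. These levels rest on 810 to 1111 counts per S228A library, 390 to 519 per S228E library and 350 to 505 per WT library. The mean was 51.9 ± 5.58 CPM in S228A, 27.4 ± 1.48 CPM in S228E and 24.4 ± 3.43 CPM in WT (SD, n = 3 each). In S228A against WT the level was 2.12-fold higher, a log2 fold change of 1.09 ± 0.11 (SE; 95% interval 0.84 to 1.33) with an edgeR adjusted p of 9.02e-06. This log2 fold change was above that of 97.6% of the genes tested. In S228E against S228A, where 11.1% of all genes passed, 6.73% as higher and 4.35% as lower, HOS2 was again the 1 member called. Its log2 fold change was -0.92 ± 0.11 (95% interval -1.16 to -0.68; edgeR adjusted p = 3.84e-05). In S228E against WT it did not pass, with a log2 fold change of 0.17 ± 0.11, an interval of -0.08 to 0.41 and an edgeR adjusted p of 0.857.

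**Figure D1:**
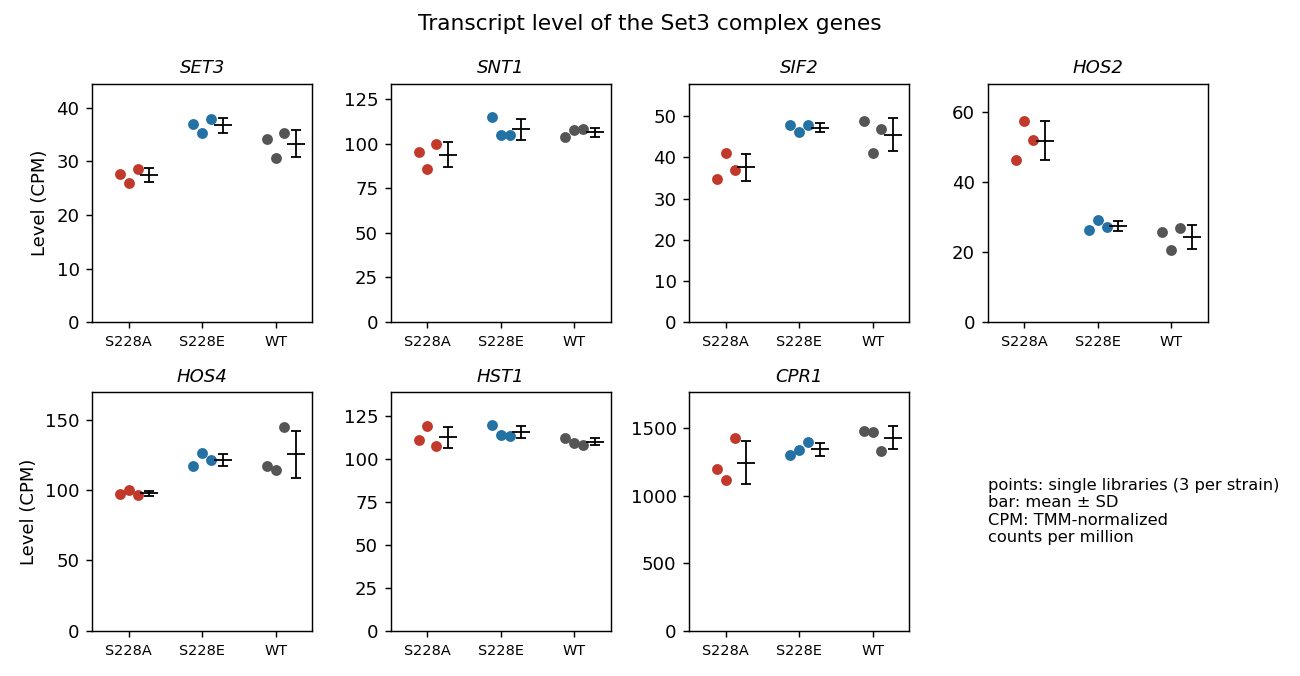
Level of each Set3 complex gene in CPM (TMM-normalized; each panel has its own axis from 0) in single libraries (points) of S228A, S228E and WT, with the mean and SD of 3 libraries beside them. The S228A points of HOS2 lie at 46.2 to 57.4 CPM, above all S228E and WT points, while those of SET3, SNT1 and HOS4 lie below both other strains.

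SET3 encodes the subunit with the PHD finger and the SET domain that names the complex. It lies on the minus strand at chrXI:497578-499833 and had 27.6, 26.0 and 28.6 CPM in S228A, 36.9, 35.3 and 38.0 CPM in S228E, and 34.1, 30.6 and 35.4 CPM in WT. All 3 S228A libraries were below all 6 others. Its log2 fold change in S228A against WT was -0.28 ± 0.08 (95% interval -0.47 to -0.10; edgeR adjusted p = 0.0201), so the level was 17.8% lower, short of the 1.5-fold threshold. Against S228A, S228E stood 0.42 ± 0.08 higher on the log2 scale (interval 0.24 to 0.60; edgeR adjusted p = 0.00221), also short of 1.5-fold.

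SNT1, at chrIII:186489-190169 on the plus strand, encodes the SANT-domain scaffold related to the animal SMRT protein. It had 95.4, 85.9 and 99.7 CPM in S228A, 114.7, 104.6 and 104.6 CPM in S228E, and 103.5, 107.4 and 108.0 CPM in WT. The S228A libraries again lay below all others, but the gap to the lowest WT library was narrow. The log2 fold change of -0.18 ± 0.07 in S228A against WT had an edgeR adjusted p of 0.0754, and it was -0.11 without S228A replicate 2.

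SIF2, at chrII:447709-449316 on the plus strand, encodes the WD40-repeat subunit. Its levels were 34.7, 41.0 and 37.0 CPM in S228A, 47.9, 46.1 and 47.8 CPM in S228E, and 48.8, 41.0 and 46.9 CPM in WT. One S228A library and one WT library met at 41.0 CPM, so those groups overlapped, whereas S228E lay above S228A throughout. The log2 fold change was -0.28 ± 0.09 in S228A against WT (edgeR adjusted p = 0.0251) and 0.33 ± 0.09 in S228E against S228A (edgeR adjusted p = 0.0121), neither past 1.5-fold.

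HOS4, the ankyrin-repeat subunit encoded at chrIX:151595-154846 on the plus strand, had the lowest log2 fold change of the 7 genes in S228A. It had 97.0, 99.9 and 96.5 CPM in S228A, 117.4, 126.1 and 121.4 CPM in S228E, and 117.1, 114.4 and 144.9 CPM in WT. The S228A libraries lay close together and below all others, while one WT library stood above the rest at 144.9 CPM. The log2 fold change in S228A against WT was -0.36 ± 0.09 (95% interval -0.55 to -0.17; edgeR adjusted p = 0.00725), a level 22.1% lower. Without the high WT library, replicate 3, it was -0.23 (edgeR adjusted p = 0.0224). In S228E against S228A it was 0.31 ± 0.09 (edgeR adjusted p = 0.0173), likewise under the fold threshold.

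HST1 encodes the NAD-dependent deacetylase of the complex, a sirtuin that also works with Sum1 and Rfm1 as a repressor, and lies on the minus strand at chrXV:200368-201879. It had 111.1, 119.3 and 107.5 CPM in S228A, 119.9, 113.8 and 113.5 CPM in S228E, and 112.2, 109.3 and 108.3 CPM in WT. The S228A values spanned the WT values, and the S228E values lay just above them. The log2 fold change was 0.03 ± 0.07 in S228A against WT (interval -0.11 to 0.18; edgeR adjusted p = 0.727) and 0.07 ± 0.07 in S228E against WT (interval -0.07 to 0.22; edgeR adjusted p = 0.870).

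CPR1 encodes cyclophilin A, an abundant prolyl isomerase that is the target of cyclosporin A and has work outside the complex. It lies on the minus strand at chrIV:768512-769000, where 242 of its 489 exon bases are shared with the same-strand reading frame YDR154C, and reads that touch both were not counted. It had 1198, 1117 and 1426 CPM in S228A, 1304, 1337 and 1399 CPM in S228E, and 1484, 1475 and 1332 CPM in WT. The groups overlapped in every comparison. The log2 fold change was -0.20 ± 0.10 in S228A against WT (interval -0.41 to 0.01; edgeR adjusted p = 0.129), and it was -0.11 without S228A replicate 2 and -0.30 without S228A replicate 3.

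Set side by side, 1 member was called higher and 0 lower in S228A against WT, and with the adjusted p alone 1 was higher and 3 were lower. Of all genes, 35% passed that looser rule, 15.5% as higher and 19.4% as lower. The edgeR adjusted p of SET3 rose above 0.05 without S228A replicate 1 (0.0503) or 2 (0.0714) or WT replicate 1 (0.0733) or 3 (0.0758), and that of SIF2 without S228A replicate 1 (0.106) or 3 (0.0616) or WT replicate 1 (0.117) or 3 (0.0696). The median log2 fold change of the 7 genes was -0.20, beside -0.01 over all genes tested. It lay between the quartiles of all genes, -0.23 and 0.18. Groups did not overlap for 4 members, 1 above and 3 below, where 44.5% of all genes did not overlap, 20.2% above and 24.3% below. In S228E against S228A the median was 0.21, beside 0.00 over all genes, whose quartiles were -0.18 and 0.20. There 4 members lay wholly above and 1 wholly below, with 44.9% of all genes not overlapping, 22.7% above and 22.2% below. The adjusted p alone was passed there by 3 members as higher and 1 as lower, and by 29.7% of all genes, 16.1% as higher and 13.6% as lower. The 95% intervals of 6 members lay inside the 1.5-fold threshold (0.58 on the log2 scale) in S228A against WT, HOS2 being the exception. In S228E against S228A those of 5 members did, the exceptions being HOS2 and SET3, whose interval reached 0.60. The share of all genes with intervals inside the threshold was not counted in any comparison.

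In S228E against WT the quasi-likelihood test of edgeR called 0 of 7 members, where 0.0489% of all genes passed. No member reached an unadjusted p under 0.05, which 345 genes did, and DESeq2 and limma-voom also called 0 members. The log2 fold changes of the members ran from -0.09 to 0.17, with a median of 0.05, and all 7 intervals lay inside the 1.5-fold threshold. HST1 was the 1 member whose groups did not overlap, with S228E above WT, where 14.4% of all genes did not overlap, 6.73% above.

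**Figure D2:**
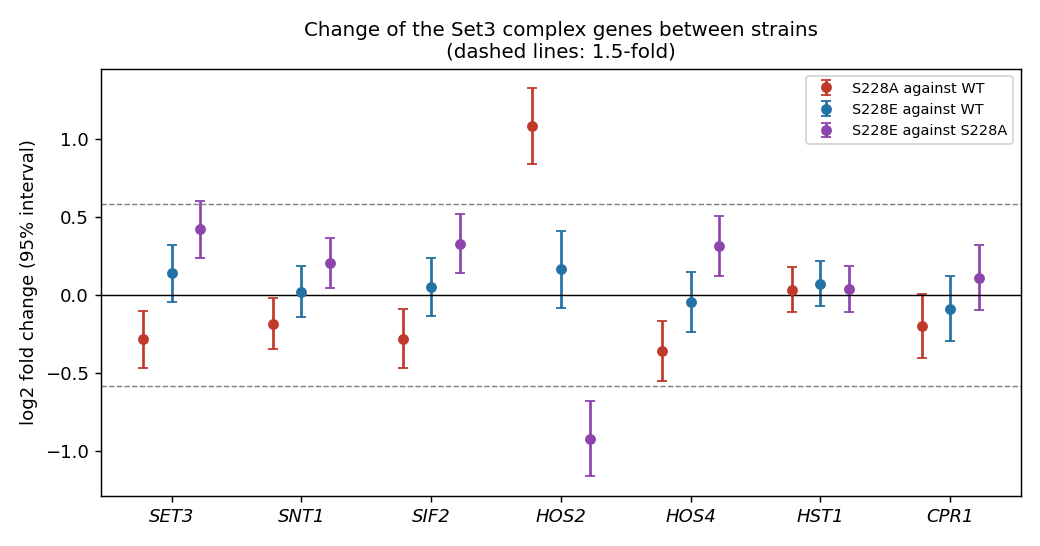
Log2 fold change with its 95% interval for the 7 genes in each strain comparison. HOS2 lies at 1.09 in S228A against WT and at -0.92 in S228E against S228A, while all intervals of S228E against WT include 0.

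Per kilobase, the order of the genes in WT was CPR1 at 2925 ± 174, HST1 at 72.7 ± 1.33, HOS4 at 38.6 ± 5.19, SNT1 at 28.9 ± 0.65, SIF2 at 28.3 ± 2.52, HOS2 at 18.0 ± 2.52 and SET3 at 14.8 ± 1.10 CPM per kilobase (SD, n = 3). The libraries of SNT1 and SIF2 overlapped, and so did those of HOS2 and SET3, so neither pair can be put in order. S228E kept HOS2 at 20.2 ± 1.09 and SET3 at 16.3 ± 0.61 CPM per kilobase in the lowest places. In S228A, HOS2 stood next after CPR1 and HST1 at 38.2 ± 4.10 CPM per kilobase, above HOS4 at 30.1 ± 0.57, SNT1 at 25.4 ± 1.92, SIF2 at 23.4 ± 1.98 and SET3 at 12.2 ± 0.60 with no overlap between HOS2 and HOS4. Counted over the bases it shares with no other gene, CPR1 stood at 5792 CPM per kilobase in WT and kept its place.

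The make-up of the transcript pool for the complex can be read within each library, where library scaling drops out. HOS2 per SET3, as a ratio of levels per kilobase, was 2.78, 3.67 and 3.01 in the S228A libraries, 1.18, 1.37 and 1.18 in the S228E libraries, and 1.26, 1.12 and 1.27 in the WT libraries. The S228A ratios were all more than 2, and the other strains overlapped. HOS2 per SIF2 averaged 1.63 ± 0.05 in S228A, 0.69 ± 0.05 in S228E and 0.63 ± 0.04 in WT (SD, n = 3). HOS2 per HOS4 averaged 1.27 ± 0.12 in S228A, 0.54 ± 0.01 in S228E and 0.47 ± 0.05 in WT. Of the summed level per kilobase of the members other than CPR1, HOS2 held 18.7% ± 1.34 in S228A, 9.66% ± 0.59 in S228E and 8.91% ± 0.86 in WT. That sum itself was 203.7 ± 7.72 CPM per kilobase in S228A, 209.1 ± 2.52 in S228E and 201.3 ± 9.77 in WT, and the strains overlapped.

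**Figure D3:**
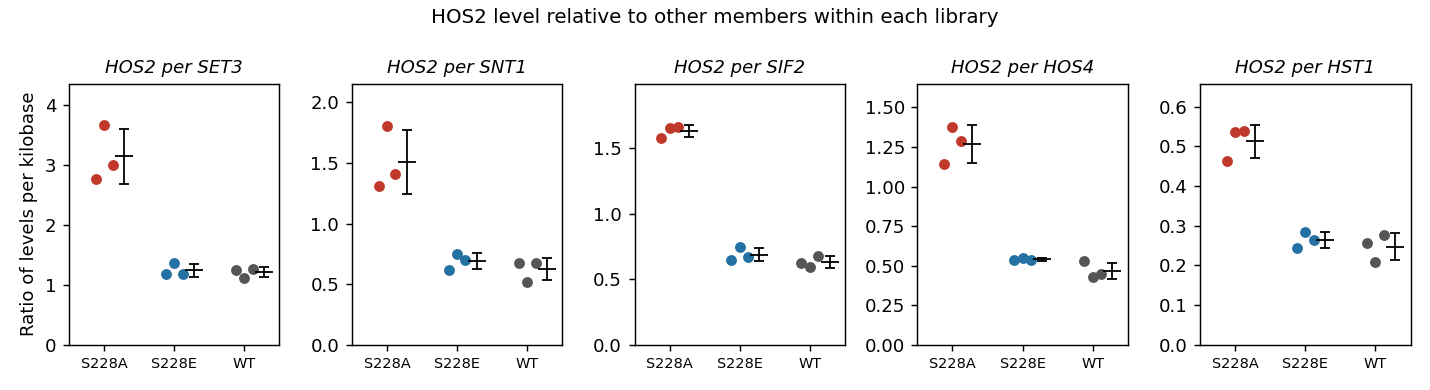
Ratio of the HOS2 level to that of another member, both in CPM per kilobase, within each library (points) of S228A, S228E and WT, with the mean and SD of 3 libraries. For HOS2 per SET3 the S228A points lie between 2.78 and 3.67 and all others between 1.12 and 1.37.

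The gene next to HOS2 downstream moved further than HOS2 itself. YGL194C-A, a short uncharacterized reading frame on the same strand at chrVII:139719-139961, begins 406 bases beyond the end of HOS2. It had 73.2, 73.9 and 84.9 CPM in S228A, 13.5, 13.997 and 10.7 CPM in S228E, and 11.9, 14.7 and 11.7 CPM in WT. The S228A libraries stood far above all others, which overlapped. In S228A against WT it rose 6.07-fold (log2 fold change 2.60 ± 0.12, SE; edgeR adjusted p = 3.59e-09), and in S228E against WT the log2 fold change was 0.01 ± 0.13. Per kilobase it stood at 318.2 ± 27.2 CPM in S228A, 52.5 ± 7.22 CPM in S228E and 52.5 ± 6.82 CPM in WT. Counts summed over whole genes without strand cannot show where in HOS2 the reads lie or from which strand they come.

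Upstream of HOS2 on the same strand lies RME2. It is the noncoding RNA antisense to IME4, the meiotic RNA methyltransferase gene, and spans chrVII:141898-144120, ending 171 bases before the HOS2 start codon. Only 108 of its 2223 bases are shared with no other gene, and it had 13 to 30 counts per library. Its log2 fold change in S228A against WT was -0.31 (edgeR adjusted p = 0.467). YGL193C and IME4 lie wholly inside RME2 and were listed at 0 in all 9 libraries, since reads in shared bases were not assigned to a gene. GCN1, the translation factor gene beyond YGL194C-A on the opposite strand, stood at 0.23 on the log2 scale (edgeR adjusted p = 0.0408).

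**Figure D4:**
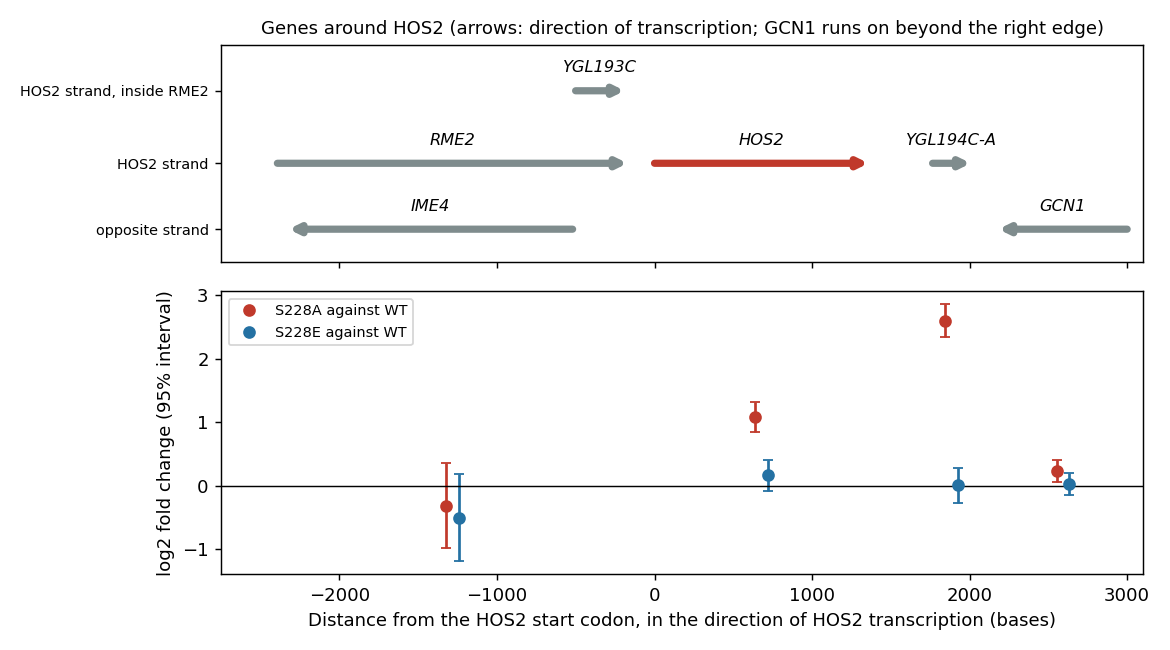
Genes around HOS2 drawn to scale by distance from its start codon (top), and the log2 fold change with its 95% interval of those that were tested (bottom). In S228A against WT, YGL194C-A lies at 2.60, HOS2 at 1.09 and GCN1 at 0.23, and in S228E against WT all 4 intervals include 0.

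No other member had a neighbour that rose, where 4.37% of all genes tested rose in S228A against WT. Of the 14 genes next to a member, 13 were tested and YBR103C-A beside SIF2 was not. YGL194C-A was the 1 that rose in S228A against WT, and 2 fell, where 7.81% of all genes fell. NUF2, a kinetochore gene that ends 70 bases from HST1 on the opposite strand, stood at -1.22 on the log2 scale (edgeR adjusted p = 2.56e-06). ELO2, a fatty acid elongase gene beside SNT1, stood at -0.586 (95% interval -0.77 to -0.40; edgeR adjusted p = 0.000159). That is barely past the fold threshold of 0.585 on the log2 scale. COX5B beside HOS4 had -0.44 (edgeR adjusted p = 0.000423), under the fold threshold. The other tested neighbours, SAP190, GMH1, BPH1, EXO84, SDP1, RTG1, ENT5, RPA14 and RME2, did not pass, and neither did YDR154C, which overlaps CPR1. None of the 13 passed in S228E against WT, where 0.0489% of all genes did.

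The window that begins 300 and ends 51 bases before the start codon was searched on both strands for 4 short motifs. TGAAAC was in the windows of 2 of 7 members, HOS2 and SET3, and in 16.8% of 6007 windows of the genome. The longer form TGAAACA was in 0 members and 6.16% of all windows, ACGCGT, the cell cycle box of MBF, in 0 members and 3.28%, and CACGAAA, the cell cycle box of SBF, in 0 members and 3.93%. TGAAACA contains TGAAAC. YGL194C-A had TGAAAC at 2 places in its window. It was the only neighbour whose sites were read out, and it is also the only one that rose. How many windows of the genome hold TGAAAC at 2 places was not counted. The sites are shown because HOS2 and SET3 share the letters, with log2 fold changes of 1.09 and -0.28 in S228A against WT. Each line runs on the gene's strand, with TGAAAC in capitals, at chrVII:141821-141848 for HOS2, chrXI:500011-500038 for SET3, and chrVII:140131-140158 and chrVII:140038-140065 for YGL194C-A. A match is a description of letters and not evidence of binding.
HOS2: tgaaagcatctTGAAACgattctaatca
SET3: cattaaagacaTGAAACtagtcctttgt
YGL194C-A, farther site: cgagacacttcTGAAACggacaagtcac
YGL194C-A, nearer site: tatcgatatcgTGAAACttccaaaatct

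Over the 9 libraries, the log2 levels of SET3 ran with those of SNT1, SIF2 and HOS4 (Pearson r = 0.82, 0.85 and 0.81) and against those of HOS2 (r = -0.77). HST1 followed none of them (r between -0.15 and 0.33 with SET3, SNT1, SIF2, HOS2 and HOS4). These values describe 9 libraries that fall into 3 strains and carry no test. Among genes at a mean of at least 5 CPM, those most like HOS2 were EMP47, which encodes a lectin-like cargo receptor of the secretory pathway (r = 0.991), CLN3, the G1 cyclin gene (r = 0.990), and the transposon gag-pol row YJL113W (r = 0.990). CLN3 averaged 198 ± 27.6 CPM in S228A, 95.3 ± 5.32 CPM in S228E and 81.6 ± 8.97 CPM in WT. Most like SET3 were MCM7, which encodes a subunit of the replicative helicase (r = 0.989), NCP1 and KRE6. SNT1 was nearest to EGT2, YDR338C and EPT1, SIF2 to PSY4, CCH1 and FIR1, HOS4 to YAT1, MIA40 and BNS1, HST1 to SRP72, BEM4 and ESA1 at no more than 0.928, and CPR1 to FPR2, VMA16 and MIC10.

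Related genes were read from the same fit. Their counts of calls in S228A against WT stand beside 12.2% of all genes, 4.37% as higher and 7.81% as lower. SET1 itself had 203.1 ± 18.1 CPM in S228A, 218.9 ± 15.1 CPM in S228E and 199.8 ± 6.25 CPM in WT (SD, n = 3), which does not check a substitution that leaves the gene in place. COMPASS, the Set1 complex, together with the demethylase gene JHD2 had 0 of 9 genes called in S228A against WT. SPP1, SWD3 and SWD2 had its smallest p-values, with log2 fold changes of -0.31, -0.38 and 0.20. The Rpd3 complexes had 0 of 14 called, their smallest p-values being those of SAP30 at -0.55, UME1 at -0.29 and DEP1 at -0.38. The Hda1 complex had 0 of 3 called, with HDA1 at 0.30, HDA2 at 0.14 and HDA3 at 0.12 on the log2 scale. The adjusted p alone was passed by 15.5% of all genes as higher and 19.4% as lower. By that rule the Rpd3 complexes had 1 higher and 4 lower, with a median log2 fold change of -0.16. COMPASS with JHD2 had 0 higher and 2 lower (median -0.07), and the Hda1 complex 1 higher and 0 lower (median 0.14).

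Of 8 histone deacetylase genes outside the Set3 complex, 0 rose and 1 fell in S228A against WT. With the adjusted p alone 1 was higher and 5 were lower, and their median log2 fold change was -0.25. HST3, a sirtuin gene that acts on acetylated histone H3, had 10.96 ± 0.10 CPM in S228A, 49.1 ± 3.04 CPM in S228E and 46.7 ± 4.55 CPM in WT, and its log2 fold change in S228A against WT was -2.09 ± 0.10 (edgeR adjusted p = 3.57e-09). HOS3 stood at -0.48. SIR2, the paralog of HST1, had -0.33 ± 0.12 in S228A against WT (edgeR adjusted p = 0.0483) and -0.33 ± 0.12 in S228E against WT (edgeR adjusted p = 0.755). SET4, the paralog of SET3, had -0.14 ± 0.12 in S228A against WT (edgeR adjusted p = 0.392). Of 7 other cyclophilin genes, CPR6, which encodes a cochaperone of Hsp90, rose by 0.79 on the log2 scale (edgeR adjusted p = 4.79e-05), while CPR3 at -0.42 and CPR4 at -0.31 stayed under the fold threshold.

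The partners of Hst1 in repression, SUM1 at -0.08 and RFM1 at -0.20, did not pass in S228A against WT (edgeR adjusted p = 0.627 and 0.279). Among 6 genes of NAD synthesis and uptake, a group that Hst1 with Sum1 is known to repress, 0 rose and 1 fell. It was BNA4, at 21.8 ± 2.24 CPM in S228A, 37.5 ± 1.79 CPM in S228E and 41.4 ± 3.45 CPM in WT, with S228A against WT at -0.92 ± 0.10 on the log2 scale (edgeR adjusted p = 1.02e-05). TNA1 at -0.34 and BNA6 at -0.37 stayed under the fold threshold.

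Of 12 meiotic and sporulation genes, 2 rose and 3 fell in S228A against WT, where 4.37% of all genes rose and 7.81% fell. The median log2 fold change of the 12 was 0.07. NDT80, the activator of middle sporulation genes, had 46.9 ± 4.01 CPM in S228A, 25.1 ± 0.57 CPM in S228E and 26.7 ± 1.41 CPM in WT, and rose by 0.81 ± 0.09 on the log2 scale (edgeR adjusted p = 1.10e-05). SPS4 fell by 2.01 and SPS1 by 0.95 on the log2 scale, at means of 0.57 ± 0.18 and 2.90 ± 0.32 CPM in S228A, against 2.30 ± 0.45 and 5.61 ± 1.24 CPM in WT. The other calls, named after their values were seen, were IME1 at 0.66 and DIT1 at -0.78. In S228E against WT, where 0.0489% of all genes passed, none of these lists had a gene called. The smallest p-values were those of SIR2 and HST2, UME6 and EAF3, HDA2 and HDA3, SWD2 and SET1, CPR2 and CPR6, BNA1 and BNA2, and SPS4 and SPS2. The lowest edgeR adjusted p among them was 0.644.

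**Figure D5:**
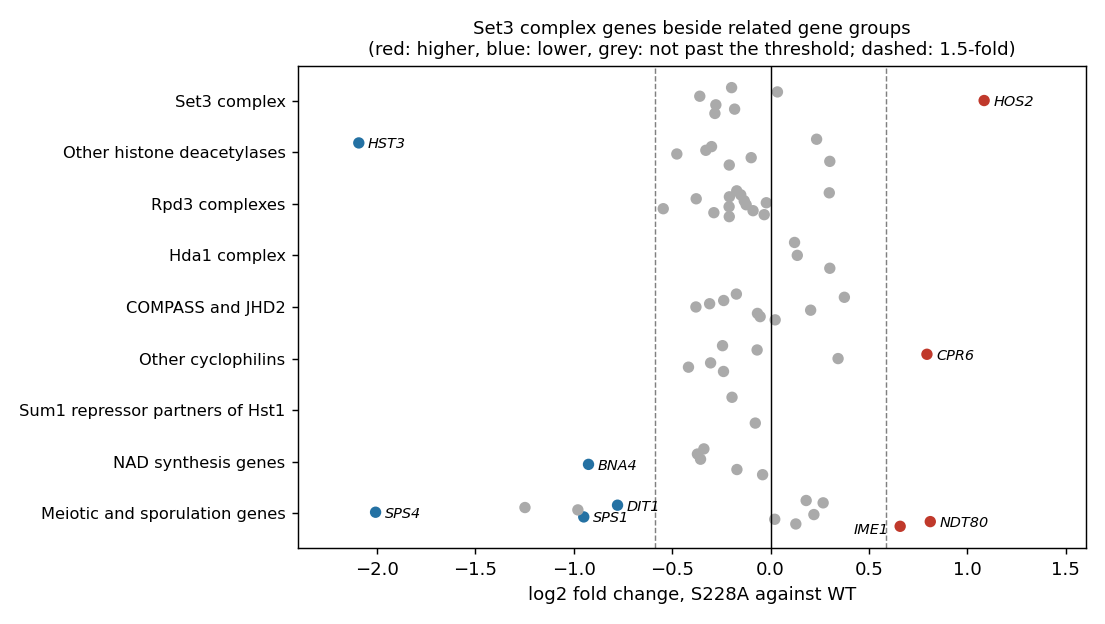
Log2 fold change in S228A against WT for the Set3 complex genes and 8 related gene groups, with dashed lines at 1.5-fold. HOS2 at 1.09 is the only called gene of its group, and the other called genes are HST3, CPR6, BNA4, NDT80, IME1, SPS4, SPS1 and DIT1.

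Marker genes of mating and growth state moved in the strain in which HOS2 was high. Over all genes tested, 4.37% rose and 7.81% fell in S228A against WT. All 14 mating response genes rose in S228A against WT, with a summed level of 15107 to 17628 CPM in S228A, 1395 to 1413 CPM in S228E and 1112 to 1343 CPM in WT. All 8 core histone genes fell, with sums of 846 to 934 CPM in S228A, 4014 to 4247 CPM in S228E and 4222 to 4920 CPM in WT. Of 4 alpha cell markers 2 rose, with sums of 137 to 208 CPM in S228A, 56.2 to 61.8 CPM in S228E and 57.8 to 61.0 CPM in WT. STE3, the receptor that defines alpha cells, had 1.77 to 3.16 CPM per kilobase in WT. STE2, the receptor that defines a cells, had 397 to 512 CPM per kilobase there. The other alpha cell markers differed from STE3 in WT. SAG1 stood higher, at 23.6 to 26.0 CPM per kilobase, and so did MF(ALPHA)2, at 15.6 to 23.9. MF(ALPHA)1 lay below STE3 in every WT library. In S228A, SAG1 had 62.0 to 96.0 and MF(ALPHA)2 33.6 to 44.9 CPM per kilobase. The part of these marker genes in the HOS2 result was not tested. In RNA from whole cultures, a change in the share of cells in one state and a change in RNA per cell cannot be told apart.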

How the data were processed

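The authors deposited raw counts per gene for all 9 libraries. Per the file headers, the counts were made with featureCounts 2.0.1 on read pairs over exons of the Ensembl annotation of sacCer3, with no strand, multiple-placement or overlap option, so multiply placed reads and reads in bases shared by 2 genes were left out. Per the submitters' processing notes, Bowtie 0.12.2 was used, with no role stated, so which tool placed the RNA reads is unknown here. The labels' extraction protocol describes chromatin immunoprecipitation, the design text phenol-chloroform RNA.

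Rows were filtered with filterByExpr, scaled by TMM (factors 0.972 to 1.03) and fitted in 1 model over 9 libraries with edgeR 4.0.16 in R 4.3.3. The standard error is the log2 fold change over the root of its F. DESeq2 1.42.0 and limma 3.58.1 were alternatives. The fit was tested on simulated data. Of 7127 rows, 6047 matched a RefSeq R64 gene, and all 7 members had the same coordinates there; exon length came from the deposited table. The members, lists and motifs were chosen with earlier results of these data known. Named genes were the members, their paralogs, neighbours and Hst1 partners, SET1, for each related list up to 3 genes with the smallest p in S228A against WT and 2 in S228E against WT, and for each member the 3 genes most correlated with it. No 2 replicates agreed within sampling noise.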

Additional observations from a re-analysis of the deposited data

How the results depend on the processing

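HOS2 kept its call in all 18 alternatives that refitted or rescaled the data, in S228A against WT (log2 fold change 0.98 to 1.17) and in S228E against S228A (-0.99 to -0.85), and no other member was called in any of them. Dropping the fold threshold raised the calls to 4 members and 2144 genes in S228A against WT and to 4 members and 1822 genes in S228E against S228A. The adjusted p of SET3 in S228A against WT ranged over 0.00996 to 0.0758 and that of SIF2 over 0.00913 to 0.117. Both exceeded 0.05 when S228A replicate 1, WT replicate 1 or WT replicate 3 was left out and when the 2 strains were fitted alone; so did SET3 without S228A replicate 2 and SIF2 without S228A replicate 3. In the same comparison HOS4 stayed at or below 0.0288, SNT1 was under 0.05 with upper quartile scaling (0.0456) and without S228A replicate 3 (0.0446), and CPR1 was under 0.05 without S228A replicate 3 (0.0205). In S228E against S228A the adjusted p of SIF2 reached 0.0559 and that of HOS4 0.0799. In S228E against WT the sign of SNT1 held in 16 of 18 alternatives, that of SIF2 and of HOS4 in 17. Genes called in S228E against WT numbered 5 with DESeq2, 1 with the replicate block, 1 with the 2 strains fitted alone and 1 to 3 with 1 library left out. Same-numbered libraries showed no common direction of deviation (r from -0.25 to 0.23), and differently numbered ones ranged over -0.25 to 0.27. Centring within each strain ties these correlations to each other, so they cannot show whether some numbers share a batch. With the replicate block 738, 1 and 666 genes were called in the 3 comparisons, and the members' calls were as before. Scaling moved the median of all genes by under 0.1 (log2). Depth limits RME2 and SPS4.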
